A study of Mus musculus with 4 samples.

Results

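The 10 genes described here encode granule and secreted proteins of neutrophils, and they were measured in macrophages grown from mouse bone marrow with M-CSF, the macrophage growth factor. They were chosen by name: Mpo, Elane, Prtn3, Ltf, Camp, Ngp, Retnlg, S100a8, S100a9 and Lcn2, which are 10 of the 24235 genes in the tables. RefSeq transcript values were summed per gene symbol. S100a9 had 2 transcripts in the tables and the other 9 genes had 1 each. The study held 4 mRNA libraries, 1 for each combination of genotype (wild type, WT, or Sema6D-/-) and treatment (unstimulated or LPS). All cells came from C57BL/6 mice aged 7 weeks. LPS, a bacterial cell wall component that macrophages sense through TLR4, was given at 100 ng/ml for 4 h. "Non" in a library title was read as not stimulated, since LPS is mentioned in the treatment text of all 4 samples. Which part of Sema6D was deleted, how many animals gave each library and how pure the cultures were is not stated in the labels.

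Neutrophils and macrophages both arise from bone marrow myeloid progenitors. Neutrophil precursors make their granule proteins in waves. Azurophil granules are filled at the promyelocyte stage with myeloperoxidase and serine proteases. Specific granules are filled later, at the myelocyte stage, with lactoferrin and cathelicidin-type proteins, and the messenger RNAs of these proteins are largely gone from mature blood neutrophils. S100a8, S100a9 and Lcn2 are abundant in neutrophils too, but monocytes and macrophages can also make them, and Lcn2 is a known LPS-inducible gene of macrophages. The members were therefore read in 3 sets: granule genes (Mpo, Elane, Prtn3, Ltf, Camp, Ngp), the mature neutrophil gene Retnlg, and the genes that macrophages also make (S100a8, S100a9, Lcn2).

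Promoter sequences of all 10 members were found in RefSeq (GRCm38.p6), and 5 are shown because the levels of Ngp, S100a8, S100a9 and Elane moved nearly in proportion over the 4 libraries while that of Lcn2 did not. Each run is the 250 bases before the annotated start, 5′ to 3′ on the gene's strand. Capitals mark matches to TTGCNNAA (a C/EBP motif), GAGGAA (a PU.1/ETS core) and TGTGGT (a RUNX motif), each searched on both strands, to TATAAA on the gene's strand only, and to an NF-kB motif on both strands. The positions are chr9:110419558-110419807, plus strand for Ngp, chr3:90668821-90669070, plus strand for S100a8, chr3:90695722-90695971, minus strand for S100a9, chr10:79886062-79886311, plus strand for Elane and chr2:32387740-32387989, minus strand for Lcn2. In S100a8 the PU.1 and TATAAA matches lie side by side and read as 1 run of capitals.
Ngp: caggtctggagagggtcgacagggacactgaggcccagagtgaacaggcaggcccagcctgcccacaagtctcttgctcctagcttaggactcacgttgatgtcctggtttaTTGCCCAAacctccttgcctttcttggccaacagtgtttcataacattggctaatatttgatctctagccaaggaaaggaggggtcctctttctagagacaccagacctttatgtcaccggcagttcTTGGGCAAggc
S100a8: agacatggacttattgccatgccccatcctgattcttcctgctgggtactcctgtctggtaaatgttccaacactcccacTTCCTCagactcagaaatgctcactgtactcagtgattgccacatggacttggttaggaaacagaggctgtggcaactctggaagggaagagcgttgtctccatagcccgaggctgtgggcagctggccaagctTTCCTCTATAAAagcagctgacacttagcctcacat
S100a9: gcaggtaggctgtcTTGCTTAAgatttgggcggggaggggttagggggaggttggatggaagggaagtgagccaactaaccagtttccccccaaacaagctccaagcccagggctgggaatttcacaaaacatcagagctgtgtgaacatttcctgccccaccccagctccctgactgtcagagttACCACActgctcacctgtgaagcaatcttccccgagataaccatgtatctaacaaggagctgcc
Elane: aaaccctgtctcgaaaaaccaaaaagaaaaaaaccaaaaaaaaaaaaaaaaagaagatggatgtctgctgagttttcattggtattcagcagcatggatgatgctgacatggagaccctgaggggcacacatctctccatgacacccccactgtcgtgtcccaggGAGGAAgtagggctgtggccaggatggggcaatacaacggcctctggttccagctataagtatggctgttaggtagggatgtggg
Lcn2: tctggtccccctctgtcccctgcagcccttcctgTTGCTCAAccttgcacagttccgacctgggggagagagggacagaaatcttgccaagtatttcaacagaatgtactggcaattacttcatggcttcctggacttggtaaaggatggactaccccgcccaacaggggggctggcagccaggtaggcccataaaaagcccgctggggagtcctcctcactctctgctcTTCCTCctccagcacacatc

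The C/EBP letters were found before 5 of the 10 members (Ngp, Ltf, S100a9, Retnlg and Lcn2), and 9.56% of 32851 RefSeq promoters of this length hold them. Ngp had 2 such matches, the nearer of them 4 to 11 bases before the start. GAGGAA was found before 6 members (Mpo, Elane, Prtn3, Ltf, S100a8 and Lcn2) and in 23.3% of all promoters. In Elane it lay 80 to 85 bases before the start and in its neighbour Prtn3 90 to 95. The RUNX letters occurred in S100a9 only (14% of all promoters) and TATAAA in S100a8 only (7.59%). The NF-kB letters occurred in none of the 10 windows and in 7.25% of all promoters. A match of letters is a description and does not show that a factor binds.

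The values were FPKM, a fragment count corrected for transcript length and library depth. The estimated depth was 17300000 to 23400000 fragments per library, and 9682 to 10057 genes reached 1 FPKM. With 1 library per group, no difference has a replicate check, no test was made and all comparisons describe these 4 libraries. Square brackets hold 95% counting intervals, which cover counting error only. The cells carried macrophage transcripts: all 10 macrophage markers listed exceeded 10 FPKM in every library. Lyz2, a myeloid lysozyme gene on that list, measured 14435 to 19821 FPKM. Sema6d itself was not lower under the knockout label, at 0.304 and 0.219 FPKM in WT without and with LPS against 0.563 and 0.592 under the label Sema6D-/-. The libraries with that label are therefore called KO-labelled, and if genotypes had been swapped all genotype directions given here would be the opposite. Sex-linked genes separated the genotypes too, with Xist at 22.3 and 21.4 FPKM in WT but at most 0.0333 in the KO-labelled libraries, where the Y-linked Ddx3y measured 13.2 and 16.6. Genotype and the sex of the source animals cannot be told apart here, and in bulk RNA fewer cells of a type cannot be told apart from less RNA per cell.

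**Figure D1:**
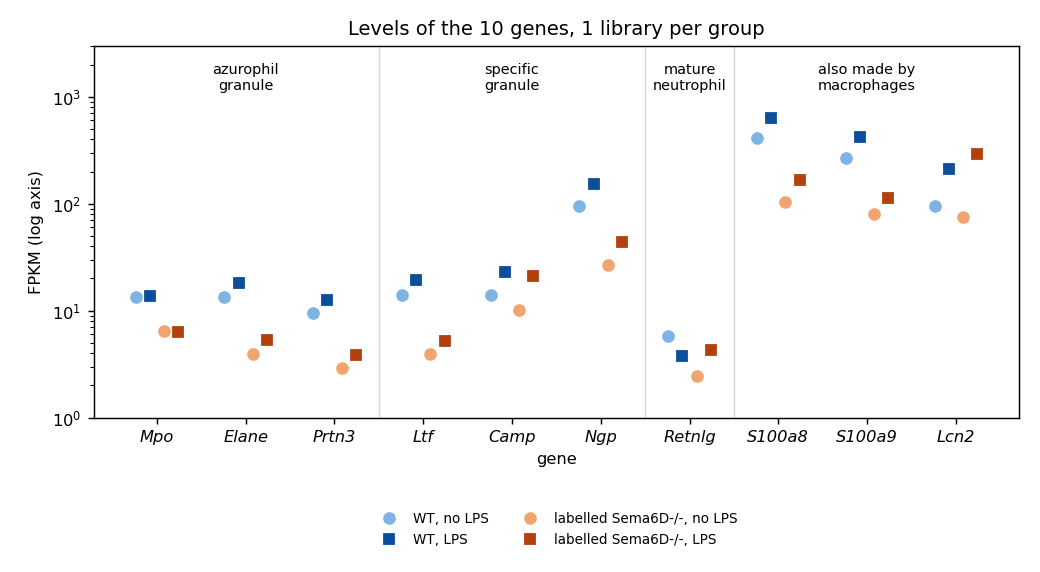
FPKM (log axis) of the 10 genes in the 4 libraries, 1 point per library, with circles for no LPS and squares for LPS. For Mpo, Elane, Prtn3, Ltf, Ngp, S100a8 and S100a9 both libraries labelled Sema6D-/- lie below both WT libraries, while the 2 highest Lcn2 values are the 2 libraries with LPS. The share of all genes with either order was not counted.

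All 3 azurophil granule genes were lower in the KO-labelled libraries, and none reached 2-fold with LPS. Mpo encodes myeloperoxidase, which makes hypochlorous acid from hydrogen peroxide. It measured 13.4 FPKM in WT without LPS, 13.7 in WT with LPS, 6.47 in the KO-labelled library without LPS and 6.26 in that with LPS. The genotypes did not overlap, an order whose share over all genes was not counted. On the deposited scale the values with and without LPS lay close together. The KO-labelled to WT log2 ratio was -1.05 [-1.22, -0.87] without LPS and -1.13 [-1.34, -0.92] with LPS, and the LPS log2 ratio was 0.03 [-0.11, 0.17] in WT and -0.05 [-0.28, 0.19] in the other genotype. With each library rescaled to a common FPKM total, a change that lowers every LPS ratio, and 1 FPKM added, the LPS ratios of Mpo were -0.46 and -0.69.

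Elane encodes neutrophil elastase, a serine protease of the azurophil granule. It measured 13.3 and 18.0 FPKM in WT without and with LPS, and 3.92 and 5.29 in the KO-labelled libraries. Both WT values stood above both others, 3.38-fold without LPS and 3.41-fold with LPS. The log2 ratios between genotypes were -1.76 [-2.16, -1.38] and -1.77 [-2.17, -1.38]. Prtn3, its neighbour on chromosome 10, encodes proteinase 3, a related protease. It measured 9.54 and 12.6 FPKM in WT against 2.91 and 3.84 in the other genotype. The pattern was that of Elane, with genotype log2 ratios of -1.71 [-2.17, -1.28] without LPS and -1.71 [-2.18, -1.26] with LPS. The 2 low values of Prtn3 rest on about 53 and 52 fragments. LPS log2 ratios in WT were 0.44 [0.21, 0.68] for Elane and 0.40 [0.12, 0.67] for Prtn3, but with rescaling and 1 FPKM added they turned to -0.08 and -0.12.

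Of the members Ltf, Camp and Ngp, Ngp was the highest in every library. Ngp encodes neutrophilic granule protein, a relative of cathelicidins. It measured 95.4 FPKM in WT without LPS, 154 in WT with LPS, 26.8 in the KO-labelled library without LPS and 43.4 in that with LPS. The 2 genotypes did not overlap, an order not counted over all genes, and the genotype difference (3.56-fold and 3.54-fold) was much larger than the LPS difference. Its genotype log2 ratios were -1.83 [-1.96, -1.71] without LPS and -1.82 [-1.94, -1.71] with LPS. With LPS it was higher by log2 ratios of 0.69 [0.61, 0.76] in WT and 0.70 [0.54, 0.85] in the KO-labelled libraries as deposited, and by 0.16 but not in the KO-labelled pair (-0.06) with rescaling and 1 FPKM added.

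Ltf, which encodes the iron-binding protein lactoferrin, measured 14.1 and 19.1 FPKM in WT against 3.97 and 5.16 in the KO-labelled libraries. The order of the libraries was that of Ngp, with genotype log2 ratios of -1.83 [-2.04, -1.62] and -1.89 [-2.11, -1.68]. Camp encodes cathelicidin, the precursor of an antimicrobial peptide, and departed from Ngp and Ltf. It measured 14.1 and 23.0 FPKM in WT against 10.05 and 21.1 in the other genotype. On the deposited scale the genotypes thus overlapped and the libraries with LPS were the higher ones. Its genotype log2 ratio was -0.49 [-0.81, -0.17] without LPS and -0.12 [-0.40, 0.16] with LPS. The LPS log2 ratio was 0.71 [0.44, 0.97] in WT and 1.07 [0.74, 1.41] in the KO-labelled library. With rescaling and 1 FPKM added, Camp had genotype ratios of -0.46 and -0.33 and LPS ratios of 0.17 and 0.30. On that scale its genotypes no longer overlapped.

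Retnlg encodes resistin-like gamma, secreted by mature neutrophils, and was the lowest of the 10 genes in WT. It measured 5.84 and 3.79 FPKM in WT without and with LPS, and 2.43 and 4.31 in the KO-labelled libraries. These values stand for about 69, 29, 21 and 27 fragments. The only difference whose counting interval left out 0 was that between genotypes without LPS, at a log2 ratio of -1.27 [-2.04, -0.54]. Its LPS log2 ratio was -0.62 [-1.32, 0.01] in WT and 0.83 [-0.08, 1.69] in the KO-labelled libraries, so neither LPS difference was detectable at this depth.

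S100a8 and S100a9, which form the calcium-binding heterodimer calprotectin, were the highest members in WT. S100a8 measured 409 FPKM in WT without LPS, 627 in WT with LPS, 103 in the KO-labelled library without LPS and 166 in that with LPS. The genotypes were far apart, 3.97-fold without LPS and 3.79-fold with LPS. The genotype log2 ratios were -1.99 [-2.11, -1.87] and -1.92 [-2.04, -1.81].

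S100a9 measured 269 and 417 FPKM in WT against 79.3 and 113 in the other genotype, nearly all of it from 1 of its 2 transcripts. It followed S100a8, its neighbour on chromosome 3, with genotype log2 ratios of -1.76 [-1.89, -1.63] and -1.89 [-2.02, -1.76]. The LPS log2 ratios were 0.62 [0.55, 0.68] and 0.69 [0.53, 0.84] for S100a8, and 0.64 [0.56, 0.72] and 0.51 [0.33, 0.68] for S100a9, in WT and in the other genotype. Both genes thus stayed under 2-fold with LPS. With rescaling and 1 FPKM added, the ratios were 0.09 and -0.07 for S100a8 and 0.11 and -0.25 for S100a9, so the direction in the KO-labelled pair turned.

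Lcn2, which encodes lipocalin 2, a protein that withholds iron from bacteria by binding their siderophores, differed from the granule genes Ngp and Ltf. It measured 94.5 FPKM in WT without LPS, 211 in WT with LPS, 74.9 in the KO-labelled library without LPS and 294 in that with LPS. Here the libraries with LPS stood above those without, and the genotypes overlapped. The LPS log2 ratio was 1.16 [1.08, 1.24] in WT and 1.97 [1.88, 2.07] in the other genotype. The genotype log2 ratio was -0.33 [-0.44, -0.23] without LPS and 0.48 [0.41, 0.55] with LPS. Lcn2 is stored in specific granules like Ngp and Ltf, which were at least 3.54-fold lower in the KO-labelled libraries. Camp, another specific granule gene, had overlapping genotypes like Lcn2 on the deposited scale only, with genotype log2 ratios of -0.49 without LPS and -0.12 with LPS.

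**Figure D2:**
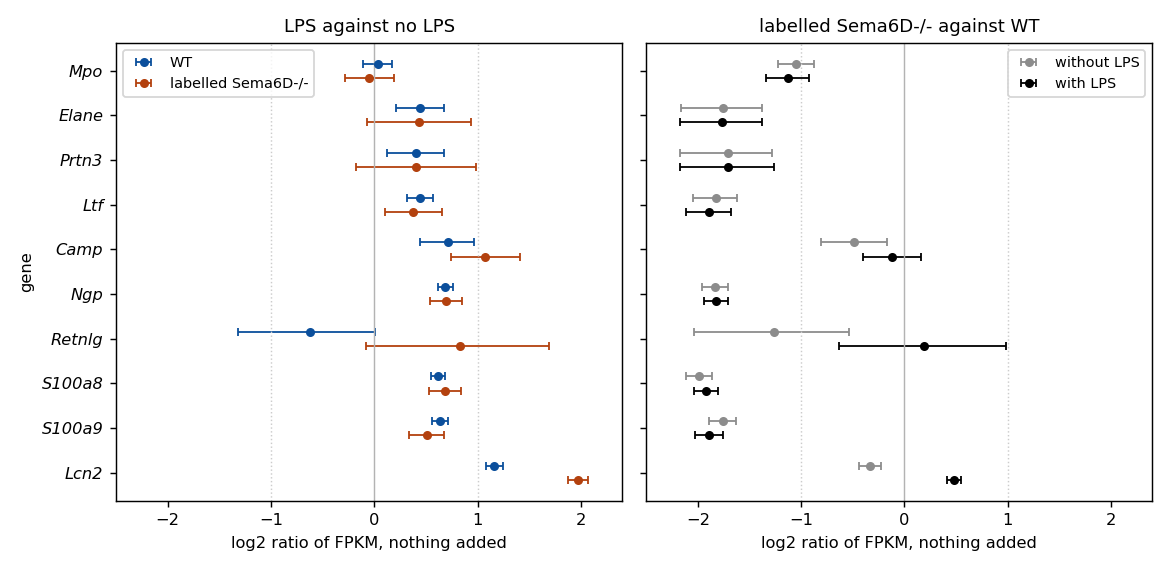
Log2 ratios of FPKM without an added value for the 10 genes, with 95% counting intervals as bars, for LPS against no LPS in each genotype (left) and for the KO-labelled libraries against WT in each state (right). Dotted lines mark 2-fold. In both genotype comparisons 7 genes lie left of the lower dotted line. With 1 FPKM added, 2.19% of all measured genes without LPS and 3.18% with LPS were at least 2-fold lower. Lcn2 lies right of the upper dotted line in both LPS comparisons on the deposited scale.

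Counts used log2 ratios with 1 FPKM added to each value, a size rule of 2-fold and genes reaching 1 FPKM in 1 or more of the compared libraries. All 10 members were measured in every comparison. Without LPS, 6 of the 10 were at least 2-fold lower in the KO-labelled library (Elane, Prtn3, Ltf, Ngp, S100a8 and S100a9), against 2.19% of the 10322 genes measured. With LPS, 7 of 10 were, Mpo being added, against 3.18% of 10078 genes (320 lower and 311 higher, or 410 and 188 with each library rescaled to a common FPKM total). The members' median was -1.48 without LPS and -1.54 with LPS, and that of all genes was 0.04 in each. The member ratios ran from -1.98 to -0.33 without LPS and from -1.91 to 0.48 with LPS. These 2 comparisons use different libraries, but the libraries of a genotype may share animals.

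With LPS, 1 of 10 members (Lcn2, 1.15) was at least 2-fold higher in WT, against 10.7% of 10375 genes. In the KO-labelled libraries 2 of 10 were (Lcn2 at 1.96 and Camp at 1.00), against 14% of 10398 genes. Both shares were near those of all genes. The members' median LPS ratio was 0.52 in WT and 0.57 in the other genotype, against -0.00 and 0.01 for all genes. The sign of these small ratios depended on scaling. With libraries rescaled, 5 of 10 members lay above 0 in WT (median 0.00) and 3 of 10 in the other genotype (median -0.16), and Lcn2 had 0.63 and 1.21. On that scale 713 of all genes were higher and 1502 lower in WT, where the deposited scale gave 1114 and 503. In the other genotype it was 745 higher and 3008 lower, where the deposited scale gave 1453 and 916. Centred on the median gene, the other genotype had 1245 higher and 1233 lower.

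The difference of the LPS responses (KO-labelled minus WT) was close to 0 for most members, with a median of -0.03 against -0.01 for all genes. Retnlg, at 1.15 on few fragments, was the only member past 2-fold, against 1.83% of 10680 genes (195 higher and 134 lower, or 123 and 222 after that rescaling). Lcn2 had 0.81 and Camp 0.33. The other 7 members lay between -0.13 and 0.07.

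A ratio between 2 genes of the same library does not depend on how libraries were scaled, so each gene was also divided by Ngp, the highest of the 6 members classed as granule genes. This yardstick was chosen after its values were seen. S100a8 stood at 4.28 times Ngp in WT without LPS, 4.08 in WT with LPS, 3.84 in the KO-labelled library without LPS and 3.82 in that with LPS. S100a9 stood at 2.81, 2.72, 2.96 and 2.60 times Ngp in the same order. The highest of the 4 ratios was thus 1.12 times the lowest for S100a8 and 1.14 times for S100a9. It was 1.25 times for Ltf and for Elane and 1.33 times for Prtn3.

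The remaining members departed from Ngp. Mpo spread 2.71-fold, and its ratio was higher without LPS than with LPS in each genotype. Elane, Prtn3, Ltf, S100a8 and S100a9 shared that direction, with smaller spreads. Camp spread 3.3-fold (0.147 and 0.150 in WT, 0.375 and 0.487 in the other genotype) and Retnlg 4.03-fold. Lcn2 spread 6.85-fold, from 0.99 in WT without LPS through 1.38 and 2.80 to 6.78 in the KO-labelled library with LPS. Of 10523 other genes above 0 in every library and reaching 1 FPKM in any, 18 (0.171%) kept their ratio to Ngp within 1.5-fold, and 5 of the 9 other members were among them. The 18 included Cd177, Chil3, Wfdc21 and Pglyrp1 from the lists below and the basophil protease gene Prss34, but also genes not in these lists, such as Lox, which encodes a collagen cross-linking enzyme (1.07-fold), and the endothelin receptor gene Ednrb (1.17-fold).

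**Figure D3:**
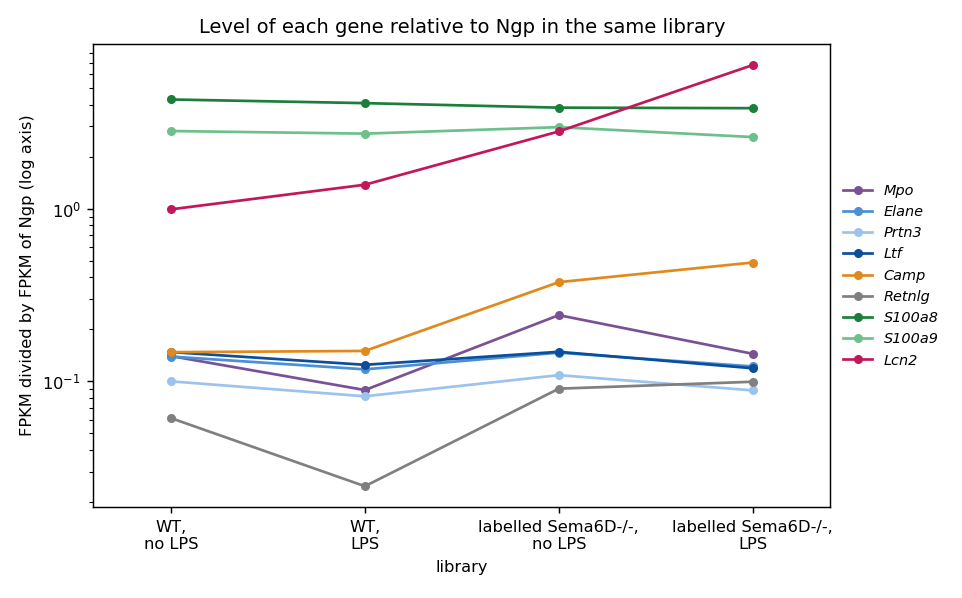
FPKM of each member divided by that of Ngp in the same library (log axis), with lines joining the values of 1 gene over the 4 libraries, which have no order in time. S100a8, S100a9, Ltf, Elane and Prtn3 run nearly flat, and Lcn2 goes from 0.99 to 6.78.

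Other neutrophil genes that were not members mostly lay on the same side. Among azurophil genes Ctsg, which encodes cathepsin G, measured 7.25 and 10.3 FPKM in WT against 2.41 and 4.69 in the KO-labelled libraries. Ms4a3, a marker of granulocyte-monocyte progenitors, measured 0.843 and 3.19 in WT against 0.388 and 0.746 in the other genotype. Of the 4 other specific granule genes, 1 was at least 2-fold lower without LPS and 3 with LPS, with medians of -0.79 and -1.07, against 2.19% and 3.18% of all genes. Cd177, a neutrophil surface glycoprotein gene, had genotype ratios of -1.20 and -1.31, the ficolin gene Fcnb -0.85 and -1.05, Olfm4 -0.58 and -1.08, and the collagenase gene Mmp8 -0.72 and -0.48.

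Mature neutrophil genes were less uniform. Without LPS 4 of the 7 measured non-members were at least 2-fold lower in the KO-labelled library (median -1.21) and with LPS 4 of 8 (median -0.79), against 2.19% and 3.18% of all genes and medians of 0.04 in each. Padi4, which encodes the enzyme that citrullinates histones, measured 20.1 and 20.6 FPKM in WT against 4.46 and 5.45 in the other genotype. Pglyrp1, a bactericidal peptidoglycan-binding protein gene, measured 8.14 and 12.1 in WT against 1.68 and 2.52, and Wfdc21 9.68 and 19.2 in WT against 3.62 and 6.42. Other genes of this list went with LPS rather than genotype: Mmp25, which encodes a membrane-anchored protease, measured 0.602 and 8.87 FPKM in WT against 0.506 and 10.8 in the other genotype. Csf3r, the G-CSF receptor gene, was highest in the libraries with LPS, at 50.8 in WT and 62.8 in the other genotype, against 20.2 and 26.9 without.

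The defining surface marker of mouse neutrophils was at a very low level. Ly6g measured 0.450 and 0.275 FPKM in WT against 0.310 and 0.418 in the KO-labelled libraries, and Cxcr2, the neutrophil chemokine receptor gene, between 0.911 and 1.62 in the 4 libraries. Stfa1 was listed at 0 throughout, but the stefin genes are near-identical copies and their values are uncertain. The summed level of the azurophil list was 44.5 and 58.0 FPKM in WT against 16.1 and 20.8 in the other genotype. The specific granule list summed to 184 and 263 against 74.8 and 112, and the mature neutrophil list, Csf3r included, to 70.5 and 124 against 42.0 and 98.1. Whether a different content of neutrophils or their precursors set the members' levels was not tested.

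The list of genes that activated macrophages also make holds S100a8, S100a9 and Lcn2. Of the 11 measured genes of that list that are not members, 8 in WT were past 2-fold higher after LPS and 7 in the KO-labelled libraries, with medians of 1.23 and 1.59. Over all genes 10.7% and 14% were, with medians of -0.00 and 0.01. Il1rn, which encodes the IL-1 receptor antagonist, measured 70.5 and 806 FPKM in WT against 50.7 and 1122 in the other genotype. Fpr1, a formyl peptide receptor gene, measured 96.4 and 500.0 in WT against 72.1 and 418 in the other genotype.

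Between genotypes this list was divided. Without LPS 3 of its 10 measured non-members were at least 2-fold higher in the KO-labelled library and 2 lower. Over all genes 2.51% were higher and 2.19% lower, and the median of these non-members was -0.19. With LPS 4 of 11 were higher and 1 lower, against 3.09% of all genes higher and 3.18% lower, and the median was 0.48. Hp, which encodes the haemoglobin scavenger haptoglobin, measured 28.3 and 97.3 FPKM in WT against 189 and 310 in the other genotype. Ptx3, a soluble pattern recognition protein gene, was listed at 0 without LPS and measured 1.18 in WT and 11.8 in the other genotype with LPS. Wfdc17 (-1.26 and -0.74) and Marco (-0.89 and -0.78) had genotype ratios below 0. On the lower side also stood Chil3, a chitinase-like gene of neutrophils and macrophages, at 37.0 and 61.0 FPKM in WT against 12.9 and 21.6 in the other genotype, close to a fixed ratio to Ngp (1.29-fold spread).

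**Figure D4:**
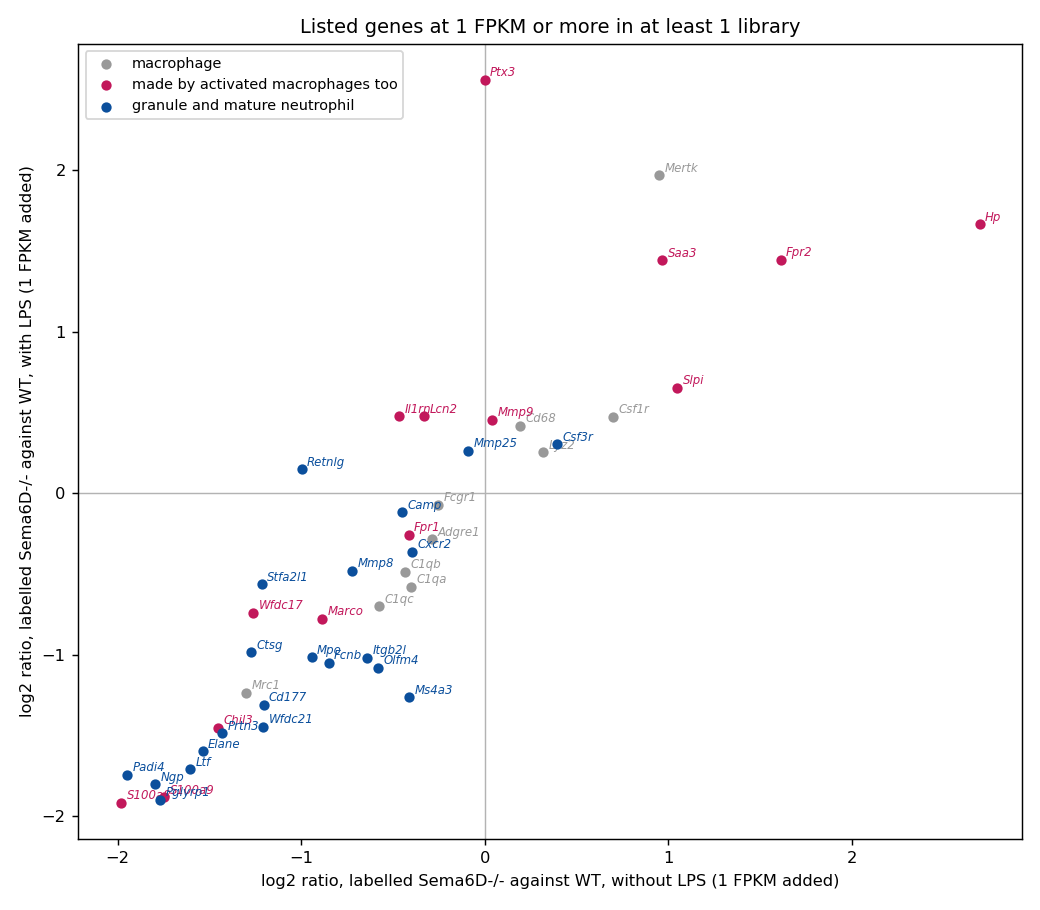
Log2 ratios (1 FPKM added) of the KO-labelled libraries against WT without LPS (horizontal) and with LPS (vertical), 1 point per gene, for the 3 neutrophil lists, the list of genes that activated macrophages also make, and macrophage markers. S100a8 (-1.98, -1.91) and S100a9 (-1.75, -1.88) lie among the granule genes at the lower left, and Lcn2 (-0.33, 0.48) lies near Il1rn.

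The low values of S100a8 and S100a9 were not shared by the rest of their family. None of the 6 other measured S100 genes was 2-fold apart between genotypes in either state, and their medians were 0.11 without LPS and 0.29 with LPS. S100a4 measured 1184 and 1162 FPKM in WT against 1507 and 1640 in the KO-labelled libraries, and S100a10, a partner of annexin A2, 282 and 448 in WT against 267 and 438. S100a11 had genotype ratios of -0.17 and 0.04 and S100a1 0.44 and 0.30. The first measured gene beyond S100a8 on chromosome 3, S100a6, had 0.14 and 0.28. With 1 FPKM added, neighbours of other members that are not members themselves were also not 2-fold lower. Some lay near 1 FPKM, where the added value shrinks a ratio. Tspoap1 beside Mpo measured 1.09 and 0.707 FPKM in WT against 0.403 and 0.186 in the KO-labelled libraries. In the same order Plppr3 beside Prtn3 measured 1.17 and 0.863 against 0.919 and 0.356. Als2cl near Ltf had 1.52 and 1.08 against 1.04 and 0.492, and Mks1 near Mpo 1.14 and 0.572 against 1.34 and 0.528. Med16 beyond Elane had 0.44 and 0.27, and Ptpn23 and Klhl18 on the sides of Ngp lay between -0.11 and 0.42. Ccrl2 beside Ltf was higher (1.97 and 1.67).

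Genes that restrain or activate granule proteases were mostly higher with LPS in both genotypes. Of 9 measured in WT 6 were at least 2-fold higher (median 2.31) and of 8 in the KO-labelled libraries 6 were (median 3.13), against 10.7% and 14% of all genes. Serpina3g and Serpina3f, serine protease inhibitor genes that share near-identical copies and are uncertain, had LPS ratios of 5.55 and 4.53 in WT. Serpinb2, the plasminogen activator inhibitor 2 gene, had 4.49 and 4.50 in the 2 genotypes. Cst7, which encodes the cysteine protease inhibitor cystatin F, measured 1.86 and 16.9 FPKM in WT against 4.28 and 59.9 in the other genotype. Of 2 inhibitors of neutrophil elastase, Slpi was higher in the KO-labelled libraries, at 92.7 and 242 FPKM against 44.3 and 153 in WT. The other, Serpinb1a, was lower there, at 0.520 and 0.421 FPKM against 1.26 and 1.47 in WT. Ctsc, whose product activates granule serine proteases, measured 93.6 and 468 in WT against 100.4 and 675 in the other genotype.

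Receptors and partners of the members' proteins showed no common direction, with 1 of 6 at least 2-fold higher and 1 lower between genotypes without LPS, and 1 higher and 2 lower with LPS. Over all genes 2.51% were higher and 2.19% lower without LPS, and 3.09% and 3.18% with LPS. Tlr4, a receptor for extracellular S100a8 and S100a9, measured 22.1 and 26.4 FPKM in WT against 13.6 and 17.8 in the KO-labelled libraries. The scavenger receptor gene Cd36 was much lower there (277 and 263 against 22.1 and 27.6), Itgam, which encodes the CD11b integrin, had genotype ratios of -0.84 and -1.02, and Fpr2, a receptor of cathelicidin peptide, 1.61 and 1.45. P2rx7 had 0.39 and -0.22. NADPH oxidase subunits, which serve neutrophils and macrophages, were divided, with 2 of 6 at least 2-fold higher in the KO-labelled library without LPS and 1 with LPS. Cybb, the catalytic subunit gene, measured 296 and 696 FPKM in WT against 717 and 1361 in the other genotype, and Ncf4 103 and 133 against 221 and 271. Rac2 (-0.47 and -0.57) and Ncf1 (0.39 and 0.55) were under 2-fold.

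Transcription factors of granule gene programmes had no common pattern. Spi1, which encodes PU.1, measured 380 and 516 FPKM in WT against 422 and 534 in the KO-labelled libraries, and Runx1 17.4 and 15.6 in WT against 20.0 and 18.1. Cebpe, which drives specific granule genes, measured 2.22 and 1.77 FPKM in WT against 0.862 and 0.988 in the KO-labelled libraries. Gfi1, needed for neutrophil development, measured 0.304 and 1.20 in WT against 0.164 and 4.42 in the other genotype. Cebpa, which acts in early granulocyte progenitors, was lower with LPS at 3.45 against 34.5 FPKM in WT and 1.88 against 32.8 in the other genotype. Cebpd measured 18.5 and 72.5 in WT against 27.5 and 151 in the other genotype, so its order over the libraries was closer to that of Lcn2 than of Ngp. Irf8, a factor that favours monocytes over granulocytes, had LPS ratios of 0.76 and 1.31.

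Markers of other cells were checked beside the genotype difference. The macrophage list summed to 19110 and 22670 FPKM in WT against 22300 and 25130 in the KO-labelled libraries. Lyz2 made up most of these sums, at 14435 and 16642 FPKM in WT against 17997 and 19821. The list's median genotype ratio was -0.27 without LPS and -0.18 with LPS. Adgre1, Fcgr1, C1qa, C1qb, C1qc and Mrc1 lay below 0 in both states, and Csf1r, Cd68, Mertk and Lyz2 above. None of the 10 was at least 2-fold higher and 1 (Mrc1, -1.30) lower without LPS. With LPS 1 was higher (Mertk, 1.97) and 1 lower (Mrc1, -1.23). Over all genes 2.51% were higher and 2.19% lower without LPS, and 3.09% and 3.18% with LPS. Csf1r, the M-CSF receptor gene, had 0.70 and 0.47, and the Fc receptor gene Fcgr1 -0.26 and -0.07. Monocyte genes stood higher in the KO-labelled libraries: Ly6c2 measured 183 and 457 FPKM against 98.7 and 247 in WT, and Ccr2 72.3 and 46.1 against 48.7 and 27.1. Of the progenitor markers, Kit and Flt3 stayed below 1 FPKM in every library. Cd34 measured 0.946 and 0.511 FPKM in WT against 1.14 and 0.505 in the KO-labelled libraries. Of 10 lymphocyte genes 8 were below 1 FPKM everywhere, the exceptions being Cd4 (1.85 to 2.68) and Cd79b, at 12.1 and 6.99 in WT against 3.13 and 0.616. All 9 erythroid genes were below 1 FPKM, 5 of them listed at 0. Mast cell, basophil and eosinophil genes summed to 6.87 and 11.1 FPKM in WT against 2.72 and 5.77 in the other genotype, with 6 of 10 below 1 FPKM, and included the eosinophil receptor gene Ccr3 (-1.20 and -1.03), Siglecf (-0.83 and -0.95), Prss34 (-0.56 and -0.74) and Prg2 (-0.18 and -0.14). The part of these cells in the members' levels was not tested.

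The genes whose profile over the 4 libraries was most like that of each member were taken next. Likeness was the Euclidean distance between centred log2(FPKM + 1) values among 7803 protein-coding genes that reached 5 FPKM in any library. The nearest 3 to Ngp were S100a9 (0.13), Lox (0.13) and S100a8 (0.16), and those to S100a9 were Pglyrp1 (0.11), Ngp and S100a8 (0.19). Elane was nearest to Ltf (0.09) and Prtn3 (0.12), and Prtn3 to Ust (0.08), a sulfotransferase gene. The nearest genes to Lcn2 were Plagl2 (0.05), a zinc finger gene, the zinc transporter gene Slc39a14 (0.06) and Cd200r4 (0.13), none of them a member. Those nearest to Camp were Arhgap26 (0.01), Tmem132a (0.07) and Psd4 (0.09), those to Mpo Pitpnc1 (0.06), Spg11 (0.08) and Mmd (0.10), and those to Retnlg Rpl22l1 (0.15), Fosl2 (0.18) and Pmp22 (0.31). With 4 libraries a short distance is a description of these values only.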

How the data were processed

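The deposited files gave 1 FPKM value per RefSeq transcript and library, which the authors produced with Cuffnorm 2.2.1, SAMtools 0.1.19, TopHat2 2.0.13 and Bowtie2 2.2.3 (named without their roles) and mouse build mm9, per the submitters' processing notes; options, annotation version and the scaling between libraries are not given in the sources used here. FPKM was read from the tool, since the file headers name no unit. Of 34487 transcripts, 34159 were named from RefSeq (GRCm38.p6), 191 from GENCODE vM21 and 137 stayed unnamed. Promoters came from RefSeq on GRCm38.p6; no mm9 coordinate was used. Values were summed per symbol. Fragment numbers were estimated from the steps of low FPKM values: times effective length (GENCODE length less 210 bases), 71.1 to 72.7% fell within 0.1 of a whole multiple, against 20% by chance. The step estimate was tested on simulated data. Counting intervals are exact (Clopper-Pearson on paired fragment numbers, scipy 1.17.1). Gapdh, a gene every cell uses, was near 0 in every library, so a value of 0 can be a failed estimate. Named were all 10 members, up to 4 genes per list with the largest ratios, and the 3 nearest profiles; further genes were named after their values were seen, and 1 listed gene is not reported here. The members and lists were chosen with earlier results of these data known. Alternatives changed the pseudocount, scaling, filter and transcript handling.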

Additional observations from a re-analysis of the deposited data

Results flagged for a closer look

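Several genes had ratios of opposite sign under the same contrast, with 1 library on each side, so the difference was not tested. Values are log2 ratios with 1 FPKM added, on the deposited scale. Rescaling to a common FPKM total shifted the median LPS ratio by -0.51 in WT and -0.71 in the other genotype. It shifted the median genotype ratio with LPS by -0.21. Signs of ratios smaller than these shifts can therefore turn, and the LPS ratios of Mpo became -0.46 and -0.69.

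Retnlg had an LPS ratio of -0.51 in WT and 0.63 in the KO-labelled libraries, and genotype ratios of -0.997 without and 0.15 with LPS, a difference of 1.15 that rests on 21 to 69 fragments per library. Lcn2 was lower in the KO-labelled library without LPS (-0.33) and higher with LPS (0.48), a difference of 0.81 on 1185 to 3447 fragments. Mpo had LPS ratios of 0.03 and -0.04, a difference of -0.0724.

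Il1rn changed side like Lcn2 (-0.47 without and 0.48 with LPS, difference 0.94). So did Gfi1 (-0.16 and 1.30, difference 1.47), Mmp25 (-0.09 and 0.26, difference 0.35) and S100a11 (-0.17 and 0.04, difference 0.21), while P2rx7 went from 0.39 to -0.22 (difference -0.61). The LPS ratios in WT and in the KO-labelled libraries differed in sign for Olfm4 (0.36 and -0.14, difference -0.50), S100a4 (-0.03 and 0.12, difference 0.15), Cd36 (-0.08 and 0.31, difference 0.38) and Csf1r (0.09 and -0.14, difference -0.23).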

How the results depend on the processing

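The count of members at least 2-fold lower in the KO-labelled libraries stayed within 1.5 times its value under all 7 alternatives, at 5 to 8 members without LPS and 5 to 7 with LPS. The count of members higher with LPS moved. In WT it went from 1 to 0 after rescaling to a common FPKM total. In the KO-labelled libraries it went from 2 to 1 after that rescaling, after centring on the median and with 5 FPKM added, since Camp lay at the threshold (0.30, 0.85 and 0.80). For the difference of responses it went from 1 to 0 with 5 FPKM added (Retnlg 0.63). Rescaling shifted the median of genes that reached 5 FPKM in all libraries by -0.51 and -0.71 for LPS in WT and in the other genotype, and by -0.21 for genotype with LPS, where Retnlg turned to -0.03.

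Counts over all genes moved with the added value. Without LPS 226 genes were lower between genotypes as reported, 359 with 0.1 FPKM added and 104 with 5, and 259 were higher, against 406 and 130. With LPS 320 were lower, against 492 and 126, and 311 were higher, against 174 with 5 FPKM added and 188 after rescaling. For LPS, 503 lower genes in WT became 892 and 188, and 916 in the other genotype 1443 and 293, with 0.1 and 5 FPKM added. In the other genotype 1453 were higher, and 963 were in the smaller set that leaves out the 5540 genes with several transcripts. For the difference of responses 195 higher and 134 lower became 294 and 363, 116 and 68, and 123 and 222 after rescaling. Depth limits Retnlg, Prtn3 and Elane most.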
